A study of Mus musculus with 12 samples.

Results

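The earliest biopsies of 6 colon tumors were compared by what each tumor was later found to be. Of the 12 arrays of the series, the 6 hybridised with early biopsies were used. In 3 mice (2201, 3407 and 3413) the last biopsy of the same tumor was read as intramucosal carcinoma, that is, cancer still confined to the mucosal layer. In the other 3 (1755, 1803 and 1805) it was read as adenoma, a benign gland-forming tumor. The early biopsies have no pathology of their own (the label gives it as unknown), so "carcinoma-fated" and "adenoma-fated" name only the later reading. The question the comparison addresses is whether the early tumors already differed across all genes.

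Every mouse was an F1 offspring of an SWR mother and a C57BL/6 father, carried the Min allele on 1 copy of Apc, and had drunk 4% dextran sodium sulfate, which injures the colon lining, in 2 cycles of 4 days separated by 17 days. The Apc mutation and the colitis treatment are thus common to both groups, and no array of normal colon or of untreated mice was used here. Each mouse gave 1 tumor, each early biopsy 1 array, and the 6 mice are separate animals. The adenoma-fated mice were 94, 87 and 86 days old at the early biopsy (89.0 ± 4.36 days, SD, n = 3). Mice 2201, 3407 and 3413 were 95, 87 and 117 days old (99.7 ± 15.5 days, SD, n = 3). Mice 1755 and 3407 were female and the others male. The Min allele is present in the germline, so all cells of the biopsy carry it, and a forceps biopsy samples only a small part of a tumor together with its vessels, stroma and immune cells.

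The colon lining renews itself from stem cells at the base of pits called crypts. Wnt signals keep these cells dividing. Cells that leave the base stop dividing and mature, either into absorptive colonocytes, which take up salt and water at the surface, or into goblet cells, which secrete mucus, or into rarer hormone and tuft cells. Apc holds Wnt signalling in check by marking beta-catenin for destruction, and colon tumors begin when its function is lost. Colitis adds neutrophils, cytokines, matrix-degrading enzymes and new vessels to this setting.

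Values are log2 intensities, 1 unit being a doubling, and a difference is always carcinoma-fated minus adenoma-fated. The array medians were 7.62 to 7.77 over the 6 early biopsies, and the recorded sex matched the sex-linked genes on 12 of 12 arrays. The labelled tissue was checked on 8 epithelial genes (Epcam, Cdh1, Krt8, Krt18, Krt19, Cdx2, Vil1, Cdh17), all measured: their mean level was 12.51 to 12.94 in the adenoma-fated and 12.17 to 12.72 in the carcinoma-fated biopsies, with a median difference of -0.21. Of the 8, 7 had a lower mean, and the differences ran from -0.94 to 0.03. The early arrays also differed in a way that follows the groups only in part. The 50 probe sets with the lowest numbers averaged 7.08 to 7.19 in mice 1755, 1803, 1805 and 2201 and 6.84 to 6.87 in mice 3407 and 3413. The submitters' sample numbers split the same way, 155, 156, 157 and 255 against 325 and 336. Mouse 2201 is therefore the only carcinoma-fated mouse whose array resembles those of the adenoma-fated mice in this respect. Its own difference from the adenoma-fated mean is given beside the main results, and the part of the split in them was not tested beyond that.

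No gene passed the test: with limma's moderated test and Benjamini-Hochberg adjustment over 19938 genes, 0 (0%) had an adjusted p under 0.05, and the smallest adjusted p was 0.178. Before adjustment, 2338 genes (11.7%) had a p under 0.05, where 996.9 would be expected if no gene differed. Genes that vary together widen the spread of such a count around that number. Of the 2338, 1323 (6.64% of all genes) were higher and 1015 (5.09%) lower in the carcinoma-fated biopsies. The split depends on the scaling of the arrays: it was 1052 higher and 1217 lower after quantile normalization and 637 higher and 1470 lower with each array centred on its median. Large differences leaned lower in the values as deposited, and were not counted under the other scalings. Among genes whose groups did not overlap and differed by at least 1 log2 unit, 56 (0.281%) were higher and 159 (0.797%) lower. Without mouse 3407 the count at an unadjusted p under 0.05 was 1396. Without mouse 1803, 25 genes passed the adjusted threshold, all lower in the carcinoma-fated biopsies, among them the colonocyte genes Krt20, Ceacam20, Guca2a, Cyp2c55, Slc51b, Mep1a and Mep1b. Without mouse 2201 it was passed by 1 gene, the small RNA gene Rnu3a. With 3 mice a group, an exact permutation test of a lone gene could not give a p under 0.1, so group overlap and size are described alongside the model.

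**Figure D1:**
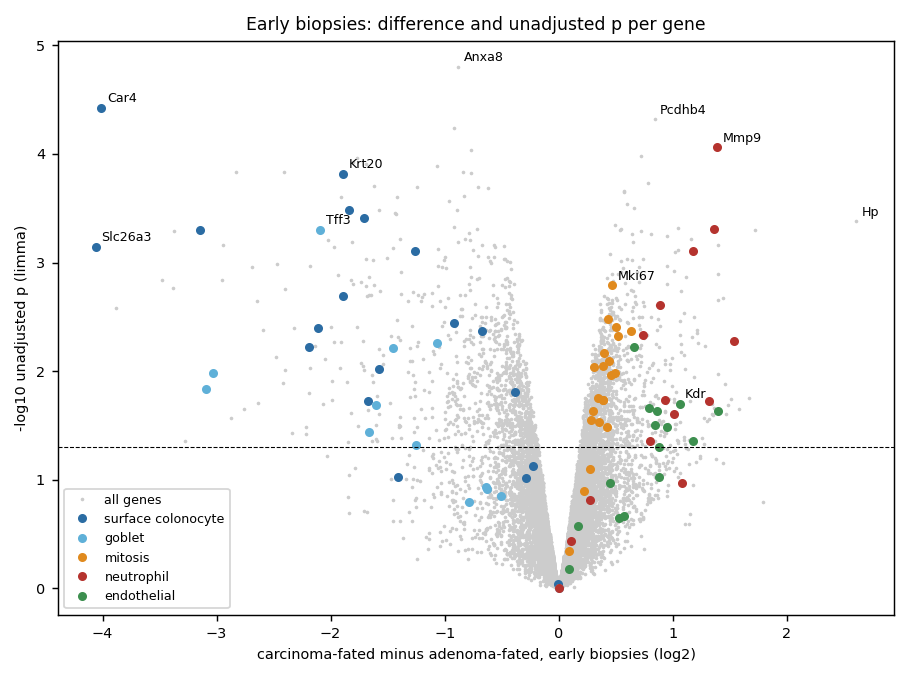
Each point is 1 of 19938 genes in the 6 early biopsies: the x axis is the difference in log2 intensity (carcinoma-fated minus adenoma-fated), the y axis -log10 of the unadjusted limma p, and the dashed line marks an unadjusted threshold of 0.05. Surface colonocyte and goblet genes lie to the left and mitosis, neutrophil and endothelial genes to the right; no gene passed the adjusted threshold.

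Genes of mature absorptive colonocytes were lower in the early biopsies of tumors that ended as carcinoma. All 19 measured genes of this list had a lower mean there (39.9% of all genes did), the median difference was -1.67 against 0.04 over all genes, and 12 of the 19 were at least 1 log2 unit lower with no overlap between groups, where 0.797% of all genes were. At an unadjusted p under 0.05, 15 of 19 were lower (5.09% of all genes) and 0 higher. The mean level of the list was 10.64, 10.22 and 11.22 in mice 1755, 1803 and 1805 and 9.01, 9.06 and 9.09 in mice 2201, 3407 and 3413. The 3 carcinoma-fated biopsies thus lay within 0.08 of each other, and the adenoma-fated ones were spread over 1 log2 unit. With each mouse left out in turn, that count was 14 to 16 and the median -2.02 to -1.44. Mouse 2201 alone had a median of -1.76 from the adenoma-fated mean, and mice 3407 and 3413 together -1.61. The epithelial genes that mark all cells of the lining differed by a median of -0.21, as given above. In a bulk biopsy, fewer cells of a type and less RNA per cell cannot be told apart.

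Car4 and Slc26a3 had the largest differences on the list. Car4 encodes carbonic anhydrase 4, an enzyme on the colonocyte surface. It read 11.74, 11.63 and 12.82 in the adenoma-fated mice 1755, 1803 and 1805 and 7.36, 8.22 and 8.58 in the carcinoma-fated mice 2201, 3407 and 3413. Every carcinoma-fated biopsy was over 3 log2 units below every adenoma-fated one. The difference was -4.01 (SE 0.414), 16.1-fold lower, with an adjusted p of 0.178 from limma. Slc26a3, the chloride-bicarbonate exchanger of the colon surface, was named after its value was seen. Its 3 adenoma-fated values were 9.78, 9.27 and 11.77 and its carcinoma-fated ones 5.93, 5.66 and 7.05, a difference of -4.06 (SE 0.684) with an adjusted p of 0.209. Mep1a, a subunit of the brush-border protease meprin and likewise named after its value was seen, came next: 10.11, 8.88 and 11 against 6.91, 6.54 and 7.08, a difference of -3.15 (SE 0.499). In mouse 2201 alone the difference from the adenoma-fated mean was -4.71 for Car4, -4.35 for Slc26a3 and -3.09 for Mep1a.

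Because these 3 genes carry the largest differences of the list, their promoters are shown from RefSeq (build GRCm38.p6, 300 bases, the last 50 of them from the start onward, 5′ to 3′ on the gene's strand: chr11:84957504-84957803, plus strand, for Car4; chr12:31437969-31438268, plus strand, for Slc26a3; chr17:43502724-43503023, minus strand, for Mep1a). Capitals mark matches on either strand to TTTATNG (the core of a CDX site), to the HNF1 consensus or to TTNNGNAA (a C/EBP site). CDX and HNF1 factors are known for intestinal genes and C/EBP factors for acute-phase genes.
Car4: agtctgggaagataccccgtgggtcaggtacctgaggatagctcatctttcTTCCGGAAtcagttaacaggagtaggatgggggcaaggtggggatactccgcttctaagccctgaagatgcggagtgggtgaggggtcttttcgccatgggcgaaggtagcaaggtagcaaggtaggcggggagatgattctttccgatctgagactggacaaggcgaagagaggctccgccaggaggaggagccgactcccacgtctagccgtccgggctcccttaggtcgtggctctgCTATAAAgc
Slc26a3: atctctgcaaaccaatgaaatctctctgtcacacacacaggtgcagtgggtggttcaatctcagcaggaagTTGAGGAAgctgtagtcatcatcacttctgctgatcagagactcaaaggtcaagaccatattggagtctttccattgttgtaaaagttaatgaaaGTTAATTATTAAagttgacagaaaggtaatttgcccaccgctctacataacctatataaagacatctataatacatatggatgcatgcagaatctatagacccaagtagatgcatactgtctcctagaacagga
Mep1a: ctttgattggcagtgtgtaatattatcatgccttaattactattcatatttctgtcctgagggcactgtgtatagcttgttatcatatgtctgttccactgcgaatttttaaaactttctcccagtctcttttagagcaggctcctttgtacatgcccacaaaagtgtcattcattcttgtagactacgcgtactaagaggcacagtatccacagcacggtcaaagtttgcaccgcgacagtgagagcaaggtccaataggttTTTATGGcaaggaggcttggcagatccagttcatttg
The CDX letters stood once in Car4, as CTATAAA on the other strand and so also within a TATA-like run, and once in Mep1a, as TTTATGG. Both matches lay within the last 50 bases, that is, after the annotated start and not upstream of it. Slc26a3 held the HNF1 consensus, GTTAATTATTAA; that consensus occurs in 20 of 32851 promoters of this length (0.0609%). Of the 17 promoters on hand for the colonocyte list, 6 held the CDX letters (35.3%), against 10.9% of all. The share was much the same in the acute-phase list, 5 of 15 (33.3%), so it is not particular to colonocyte genes. It was 1 of 6 (16.7%) in the goblet list and 0 of 17 in the mitosis list. The C/EBP letters, at 41.2% of the list's promoters, were about as frequent as in all (40.7%). A match describes the letters only and shows neither a site nor a cause.

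Krt20, the keratin of the mature surface cell, read 11.71, 11.10 and 12.08 in the adenoma-fated mice and 9.90, 9.74 and 9.57 in the carcinoma-fated ones. The lowest adenoma-fated value lay more than 1 log2 unit above the highest carcinoma-fated one. Its difference was -1.89 (SE 0.245; adjusted p 0.178, limma). Cdhr5, a cadherin that links microvilli of the brush border, read 12.24, 11.64 and 12.53 against 10.69, 9.97 and 10.24, a difference of -1.84. Ceacam20, another microvillus protein, read 10.83, 10.01 and 11.04 against 8.85, 9.04 and 8.86, a difference of -1.71. Neither gene's groups overlapped. At the other end of the list, the bile acid transporter subunit Slc51a was at -0.01, Ceacam1 at -0.23 and the microvillus bundler Vil1, which epithelial cells at all stages make, at -0.29. The late biopsies of the same mice, which are not independent of the early ones, gave a median of -1.19 for the list with 19 of 19 lower, 4 of them without overlap (6.12% of all genes late). For Car4 the late difference was -1.0 and for Krt20 -2.95.

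**Figure D2:**
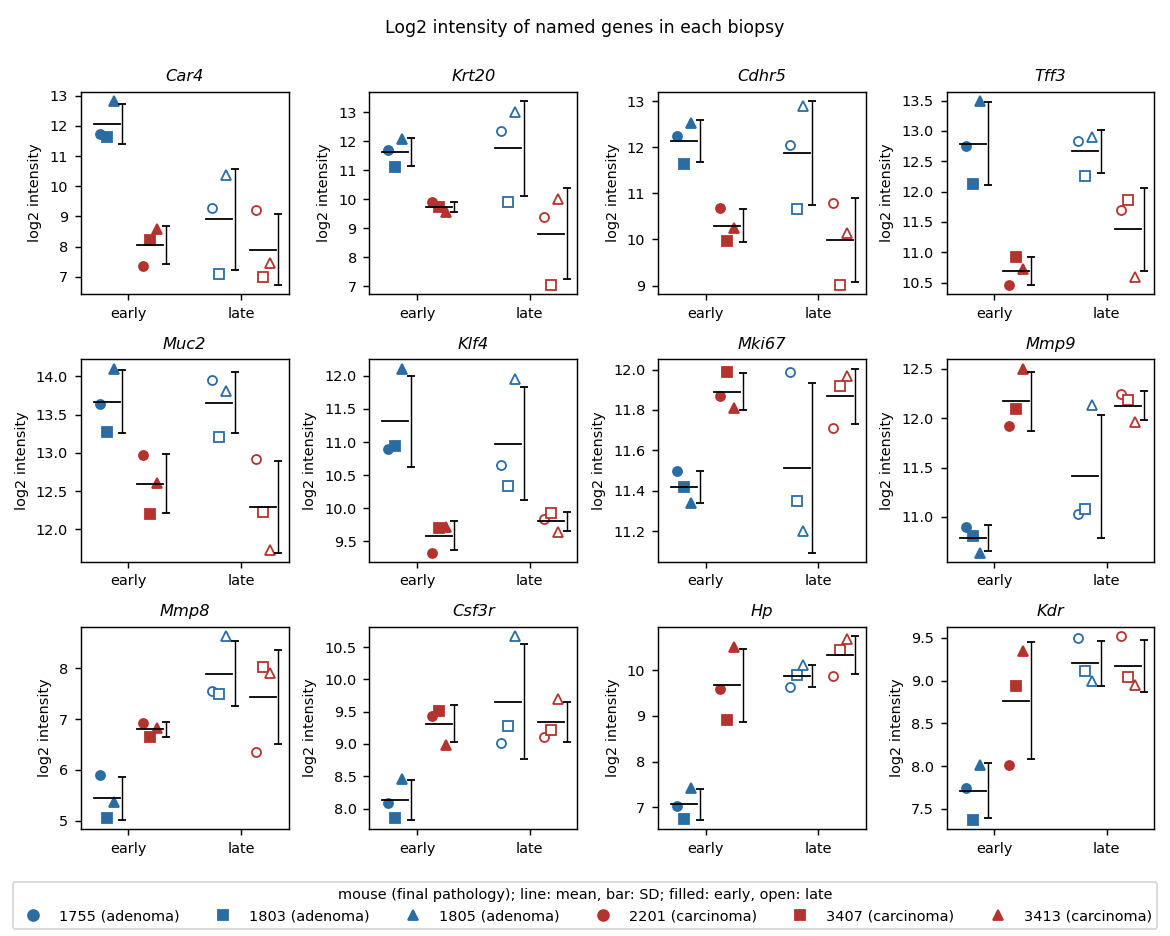
Log2 intensity of 12 genes in each biopsy, early (filled) and late (open), adenoma in blue and carcinoma in red, 1 marker shape per mouse within a group; the line is the mean of 3 mice and the bar the SD. In the early biopsies the groups are separate for all 12 genes, although for Kdr mouse 2201 lies level with mouse 1805 at 8.01.

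Goblet cell genes were lower as well. Of 13 measured genes, 12 had a lower mean, 8 of them at an unadjusted p under 0.05 (5.09% of all genes), and the median difference was -1.25. The mean level was 11.56, 10.77 and 12.01 in the adenoma-fated mice and 10.03, 10.06 and 10.14 in the carcinoma-fated ones, so that the spread lay among the adenoma-fated mice. Without mouse 3407, the count at an unadjusted p under 0.05 was 5 of the 13. Tff3, a peptide secreted with mucus, read 12.75, 12.13 and 13.49 against 10.46, 10.92 and 10.72, a difference of -2.09 (SE 0.331; adjusted p 0.208, limma). Muc2, the gel-forming mucin of the colon, read 13.64, 13.27 and 14.10 against 12.97, 12.20 and 12.61, a difference of -1.07 (SE 0.266). The highest carcinoma-fated Muc2 value, that of mouse 2201, was 0.30 below the lowest adenoma-fated one. Clca1, a protein of the mucus layer, was at 13.76, 12.70 and 13.62 against 8.24, 11.33 and 11.42, so that mouse 2201 stood 3 log2 units below the other carcinoma-fated mice. In mouse 2201 the median of the list was -0.69, and in mice 3407 and 3413 together -1.46. In the late biopsies it was -0.93.

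Transporters of salt and water followed the colonocyte genes in part. Of 16 measured, 10 had a lower and 6 a higher mean, with a median of -0.96; 8 were lower (5.09% of all genes) and 3 higher (6.64%) at an unadjusted p under 0.05. The epithelial sodium channel subunits Scnn1b and Scnn1a were among the lower ones: Scnn1b read 9.28, 9.05 and 9.67 against 8.50, 8.35 and 8.15 (difference -1.0) and Scnn1a 10.21, 10.33 and 11.23 against 9.46, 9.27 and 9.07 (difference -1.32). Atp12a, the colonic proton-potassium pump, was at 9.48, 10.38 and 11.65 against 6.86, 7.96 and 7.84, a difference of -2.95. Slc5a8, which takes up butyrate with sodium, was at 11.10, 10.34 and 12.70 against 8.08, 8.99 and 9.63, a difference of -2.48. None of these 4 genes had overlapping groups. In the list, 8 of 16 were lower and 2 higher without overlap (7.31% and 10.7% of all genes). Xenobiotic enzymes had a median of -0.25 over 28 genes, 22 lower, 8 of them at an unadjusted p under 0.05 (5.09% of all genes). The sulfotransferase Sult1b1 (-2.69) and the cytochromes Cyp3a13 (-1.97), Cyp2c65 (-2.05) and Cyp2s1 (-1.73) had non-overlapping groups. In that list, 8 of 28 were lower and 1 higher without overlap (7.31% and 10.7% of all genes). Cyp2c65 was dim, with a mean over the 6 early arrays under the 25th percentile of all genes (6.69). Klf4, a transcription factor of post-mitotic colonocytes and goblet cells, read 10.89, 10.94 and 12.11 against 9.33, 9.70 and 9.72, a difference of -1.73 (SE 0.333; adjusted p 0.230, limma).

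The general identity of the lining differed far less. Intestinal identity factors and keratins had a median of -0.24 (13 measured, 10 lower, range -0.94 to 0.06), with Cdx1, a homeobox factor of the intestine, at -0.73, Hnf4a at -0.32 and Krt19 at -0.24. Tight junction genes had a median of -0.27 (12 measured, 10 lower). Cldn23, a claudin of the mature surface, was at 9.72, 9.62 and 9.44 against 8.62, 8.78 and 8.91 (difference -0.83), while Cldn2, a pore-forming claudin of the crypt base, was higher by 0.69 with overlapping groups. Enteroendocrine genes had a median of -0.36, 13 of 15 lower; Chga and Gcg were at -1.03 and -1.04, both with overlap and both highest in mouse 1805. Tuft cell genes had a median of -0.03 over 11, gastric-type genes 0.13 over 14, Paneth-type and other antimicrobial genes -0.02 over 11 and squamous genes 0.02 over 16. The squamous median changed sign with the scaling of the arrays (-0.04 after quantile normalization). Of these 16 genes, 4 were lower (5.09% of all genes) and 1 higher (6.64%) at an unadjusted p under 0.05. The 4 were Krt4 at -1.14, Sprr1a at -0.67, Krt6b at -0.62 and Krt15 at -0.52. Without overlap, 3 were lower (7.31% of all genes) and 0 higher. Within the antimicrobial list the members pointed both ways, Reg3g at 1.44 with mouse 3407 inside the adenoma-fated range and Defa24 at -1.85.

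Genes of cell division were higher by a small amount that recurred across the list. All 21 measured mitosis genes had a higher mean in the carcinoma-fated biopsies (60.1% of all genes did), with a median of 0.39, and the groups of 18 of the 21 did not overlap, where 10.7% of all genes were higher without overlap. The same number, 18, were higher at an unadjusted p under 0.05 (6.64% of all genes); without mouse 1805 or without mouse 3407 it was 11. The mean level of the list was 10.39, 10.27 and 10.10 in mice 1755, 1803 and 1805 and 10.67, 10.73 and 10.51 in mice 2201, 3407 and 3413. Mki67, the proliferation antigen, read 11.50, 11.42 and 11.34 against 11.87, 11.99 and 11.81, a difference of 0.47 (SE 0.0912; adjusted p 0.230, limma). Top2a, which untangles replicated DNA, was at 11.27, 11.20 and 10.98 against 11.77, 11.66 and 11.52 (difference 0.50). Bub1, a kinase of the spindle checkpoint, was at 10.32, 10.09 and 9.77 against 10.69, 10.78 and 10.61 (difference 0.63), and Plk1, a kinase of mitotic entry, at 0.43. These differences amount to 1.34-fold to 1.55-fold, against 3.27-fold to 16.1-fold for Ceacam20, Cdhr5, Krt20 and Car4, the colonocyte genes with the smallest p. DNA replication genes had a median of 0.28, 24 of 25 higher, with the helicase subunit Mcm7 at 0.44 and the nucleotide reductase Rrm1 at 0.40. Of the 25, 5 were higher without overlap (10.7% of all genes). At an unadjusted p under 0.05, 4 were higher (6.64%), and 1 to 14 with each mouse left out in turn. The list's level in mouse 3413, 9.76, lay inside the adenoma-fated range of 9.51 to 10.01. For mitosis the median was 0.42 in mouse 2201 alone, 0.39 in mice 3407 and 3413 together, and 0.42 in the late biopsies. Late, all 21 were again higher (54.2% of all genes), 7 of them without overlap (8.77% of all genes).

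Wnt pathway genes did not follow the mitosis genes closely. The Wnt targets and feedback inhibitors had a median of 0.17, 23 of 29 higher, with 2 higher (10.7% of all genes) and 0 lower without overlap, and the ligands and receptors one of 0.05 over 37 (-0.02 after quantile normalization). Among the inhibitors, Axin2, a direct target that limits the pathway, read 11.51, 11.91 and 11.28 against 11.55, 11.83 and 11.80 (difference 0.17, with overlap), and Apcdd1 was at -0.75. Among the receptors, Fzd2 was at 0.58 and Fzd4 at 0.73 without overlap, and Fzd5 at -0.40 with overlap. In the ligand and receptor list, 4 of 37 genes were higher and 2 lower without overlap, against 10.7% and 7.31% of all genes. Lypd6b, a membrane-anchored Wnt modulator, was at -0.50 without overlap. Stem cell genes had a median of 0.18, 11 of 14 higher. Lgr5, the receptor that marks crypt-base stem cells, read 11.28, 10.78 and 10.38 in the adenoma-fated mice and 12.30, 10.75 and 12.02 in the carcinoma-fated ones. Mouse 3407 lay within the adenoma-fated range, and the difference was 0.88 (SE 0.429; adjusted p 0.482, limma). Cd44, a Wnt target and adhesion receptor, was at 0.35 and the self-renewal factor Bmi1 at -0.34, neither with overlap. They were the only 1 higher and 1 lower of the 14 stem cell genes without overlap (10.7% and 7.31% of all genes).

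Apc, the gene mutated in these mice, and other tumor genes differed by little. Apc read 10.82, 11.11 and 10.95 against 10.64, 11.10 and 11.06, a difference of -0.03. Ctnnb1, which encodes beta-catenin, was at 0.03, the transcription factor Myc at 0.05, the TGF-beta mediator Smad4 at -0.13 and Pla2g2a, the modifier of Min known as Mom1, at 0.04. Each of these 5 had overlapping groups, and leaving out a mouse turned the sign for Apc (-0.11 to 0.12), Ctnnb1 (-0.06 to 0.11), Myc (-0.16 to 0.32) and Pla2g2a (-0.05 to 0.12). The 18 measured driver genes had a median of 0.02 (-0.05 with each array centred on its median), the largest difference being -0.46 for the receptor Erbb3, with Pms2, a mismatch repair gene, at 0.38. BMP and TGF-beta genes had a median of 0.18, 21 of 29 higher, with the ligands Bmp6 at 0.55, Tgfb1 at 0.53 and Bmp7 at 0.65, all without overlap. In that list 5 of 29 were higher and 0 lower without overlap (10.7% and 7.31% of all genes). Notch genes had a median of 0.27, 16 of 18 higher. Hedgehog genes had one of 0.22 over 11, with the epithelial ligands Ihh and Shh at -0.89 and -0.74 and their transducer Smo at 0.39, all 3 without overlap. No other hedgehog gene was free of overlap, so 2 of 11 were lower and 1 higher (7.31% and 10.7% of all genes). Targets of p53 and senescence genes had a median of 0.01 over 13 (-0.06 with each array centred on its median).

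Neutrophil genes were higher in the carcinoma-fated early biopsies. All 14 measured had a mean above that of the adenoma-fated mice or level with it, the median difference was 0.97, 9 were higher without overlap (10.7% of all genes), and 6 of these by at least 1 log2 unit (0.281% of all genes). At an unadjusted p under 0.05, 10 of 14 were higher (6.64% of all genes), and 6 without mouse 1803. The mean level was 8.31, 7.73 and 8.06 in the adenoma-fated mice and 9.31, 8.90 and 8.58 in the carcinoma-fated ones, highest in mouse 2201. Mmp8, the neutrophil collagenase, read 5.90, 5.06 and 5.36 against 6.93, 6.64 and 6.83, a difference of 1.36 (SE 0.215; adjusted p 0.208, limma). It was dim, with a mean over the 6 early arrays under the 25th percentile of all genes (6.69). Csf3r, the receptor for the growth factor of granulocytes, was at 8.08, 7.85 and 8.46 against 9.44, 9.51 and 8.99 (difference 1.18). Cxcr2, the chemokine receptor that draws neutrophils into tissue and here named after its value was seen, was at 8.18, 6.94 and 8.11 against 9.60, 9.48 and 8.79 (difference 1.54). The granule genes Ltf, Camp and Ngp, made mainly by immature neutrophils, were at 0.00, 0.11 and 0.27. Mouse 2201 alone had a median of 1.22 and mice 3407 and 3413 together 0.66.

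Matrix-degrading enzymes were higher in the same 3 biopsies. All 19 measured proteases and inhibitors had a higher mean (60.1% of all genes), with a median of 0.53, and 8 were higher at an unadjusted p under 0.05 (6.64%). Mmp9, the gelatinase of neutrophils and macrophages, which is also on the neutrophil list, read 10.90, 10.81 and 10.64 against 11.92, 12.09 and 12.50. All 3 carcinoma-fated values were at least 1 log2 unit above all adenoma-fated ones. The difference was 1.39 (SE 0.164), 2.61-fold, with an adjusted p of 0.178 from limma. Adamts4, a protease of proteoglycans, was at 8.12, 8.23 and 8.28 against 8.95, 9.25 and 9.59 (difference 1.05), and the urokinase Plau at 9.93, 9.55 and 9.49 against 10.27, 10.35 and 10.45 (difference 0.70). In mouse 2201 the protease list had a median of 0.57 and in mice 3407 and 3413 one of 0.66.

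Acute-phase genes pointed in opposite directions within the list, whose median was -0.06 over 17. Hp encodes haptoglobin, which binds free hemoglobin. It read 7.03, 6.73 and 7.42 against 9.59, 8.91 and 10.52, with every carcinoma-fated value well above every adenoma-fated one, a difference of 2.61 (SE 0.401), 6.12-fold, and an adjusted p of 0.208 from limma. Cp, the copper carrier ceruloplasmin, was at 9.81, 9.32 and 9.82 against 10.66, 11.03 and 11.47 (difference 1.40). The serum amyloid genes, a family of lipid-binding defence proteins, split. Saa3 was at 8.86, 8.81 and 9.08 against 10.51, 10.15 and 11.26, a difference of 1.72 (SE 0.274). Saa1 was at 9.26, 9.92 and 10.51 against 4.04, 7.27 and 6.73, a difference of -3.88 (SE 0.828), and Saa2 at -0.76. Neither Saa1 nor Saa3 had overlapping groups. The 2 genes Saa1 and Saa2 are close in sequence, so their probe sets may share signal.

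The promoter of Saa3 (RefSeq, GRCm38.p6, chr7:46715627-46715926, minus strand) is shown because this gene stands opposite to Saa1 and because acute-phase promoters are known for C/EBP sites; capitals mark TTNNGNAA.
Saa3: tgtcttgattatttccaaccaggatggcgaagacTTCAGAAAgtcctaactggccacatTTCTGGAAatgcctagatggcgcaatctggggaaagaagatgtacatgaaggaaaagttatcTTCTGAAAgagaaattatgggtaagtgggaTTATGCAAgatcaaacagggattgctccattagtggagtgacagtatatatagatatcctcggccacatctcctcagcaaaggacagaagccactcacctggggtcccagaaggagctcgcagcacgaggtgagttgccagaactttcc
It held 4 matches. Of the 15 promoters on hand for the acute-phase list, 11 held the letters (73.3%), against 40.7% of all 32851, and the list holds genes that were higher and genes that were lower.

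Cytokine and prostaglandin genes had a median of 0.46, 18 of 20 higher, but most of this lay in mouse 2201, whose median was 0.91 against 0.13 in mice 3407 and 3413. Ptgs2, the inducible cyclooxygenase of tumor prostaglandin synthesis, read 10.32, 10.44 and 11.42 against 12.75, 12.18 and 11.26. Mouse 3413 lay within the adenoma-fated range. Il23a, a cytokine subunit of mucosal inflammation, was at 0.65 and Il18, an epithelial cytokine, at -0.92. The groups of Il18 did not overlap. In the list, 1 of 20 was lower and 2 were higher without overlap (7.31% and 10.7% of all genes). Complement genes had a median of 0.13, 12 of 16 higher, which was -0.07 without mouse 3413, -0.17 in mouse 2201 and 0.43 in mice 3407 and 3413. Among them C5ar1, the anaphylatoxin receptor of neutrophils and macrophages, was at 7.65, 7.77 and 7.99 against 8.53, 8.73 and 9.19 (difference 1.01), and Cd55, which protects cells from complement, at 10.85, 10.40 and 10.46 against 9.71, 9.55 and 9.58 (difference -0.96). Chemokines had a median of 0.16 over 25 (-0.02 without mouse 2201), with Ccl28, made by colon epithelium, at -1.60. In the fetal-like list, whose median was 0.34 with 10 of 11 higher, Ereg, an EGF-receptor ligand, read 8.78, 8.44 and 9.06 against 10.32, 9.68 and 9.57 (difference 1.10) and the alarmin Il33 was at 0.79, both without overlap. Of its 11 genes, 3 were higher and 0 lower without overlap (10.7% and 7.31% of all genes).

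**Figure D3:**
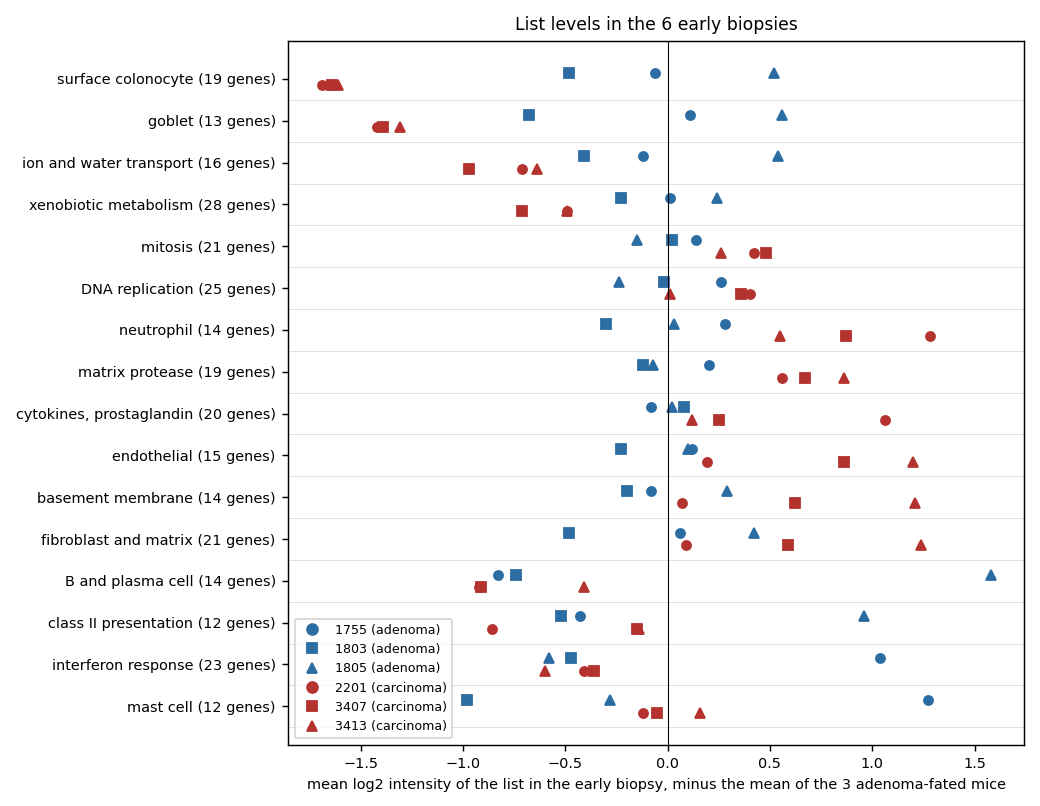
Mean log2 intensity of 16 lists in each of the 6 early biopsies, minus the mean of the 3 adenoma-fated mice (x axis, log2 units; 1 point per mouse, blue adenoma-fated, red carcinoma-fated). The 3 red points of the surface colonocyte list lie together near the left edge, those of the vascular and matrix lists spread with mouse 2201 near 0, and in the B and plasma, class II and interferon lists 1 blue mouse stands apart.

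Vessel and stroma genes were higher in mice 3407 and 3413 and near the adenoma-fated level in mouse 2201. All 15 endothelial genes had a higher mean, with a median of 0.84, yet the median was 0.22 in mouse 2201 and 1.12 in mice 3407 and 3413 together. The list's level was 8.89, 8.54 and 8.87 in the adenoma-fated mice, 8.96 in mouse 2201, and 9.63 and 9.97 in mice 3407 and 3413. Kdr, the main receptor for vascular endothelial growth factor, read 7.75, 7.37 and 8.01 against 8.01, 8.94 and 9.34. Eng, a TGF-beta co-receptor of vessels, read 9.34, 8.86 and 9.85 against 9.75, 10.92 and 11.58, with mouse 2201 inside the adenoma-fated range. At an unadjusted p under 0.05, 9 of 15 were higher (6.64% of all genes); the number was 5 without mouse 1755, 1 without mouse 1803, 1 without mouse 3407 and 3 without mouse 3413. It was 12 without mouse 2201.

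Basement membrane genes had a median of 0.87, 12 of 14 higher, which was 0.23 in mouse 2201 and 1.18 in mice 3407 and 3413. Hspg2, the proteoglycan perlecan, was at 9.68, 9.64 and 10.06 against 10.40, 10.50 and 10.93 (difference 0.81), and Col4a2, a chain of the collagen network under the epithelium, at 9.20, 9.09 and 9.54 against 9.63, 10.37 and 10.91 (difference 1.03). Mouse 2201 was thus the lowest of the 3 for both. Fibroblast and interstitial matrix genes had a median of 0.65, 20 of 21 higher, which was 0.16 in mouse 2201 and 1.00 in the other two. Col1a1, the main fibrillar collagen, read 10.58, 10.17 and 11.16 against 11.14, 11.79 and 12.43, and mouse 2201 lay just under mouse 1805. Fn1, fibronectin, differed less between the carcinoma-fated mice: it read 13.28, 13.02 and 12.91 against 13.49, 13.52 and 13.66 (difference 0.48), again lowest in mouse 2201. Smooth muscle and pericyte genes had a median of 0.29 over 14 (-0.05 without mouse 3413), at -0.17 in mouse 2201 and 0.57 in mice 3407 and 3413, with the pericyte receptor Pdgfrb at 1.32 (mouse 2201 at 0.31). Macrophage and monocyte genes had one of 0.37 over 15 (0.08 without mouse 3413), at -0.15 and 0.54 in the same order. Mesenchymal transition genes had one of 0.19 over 14 (0.06 without mouse 3413), at -0.24 and 0.39. Snai1, a repressor of epithelial adhesion genes, was an exception at 8.19, 8.17 and 8.52 against 8.89, 8.83 and 9.17. The smooth muscle and pericyte list had a level of 9.18 in mouse 3407, inside the adenoma-fated range of 8.54 to 9.37, and of 9.93 in mouse 3413. The other lists, which set mouse 2201 apart from mice 3407 and 3413, divide them as the sample numbers do. These 2 divisions cannot be told apart. Mice 3407 and 3413 differ from each other in sex and age.

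**Figure D4:**
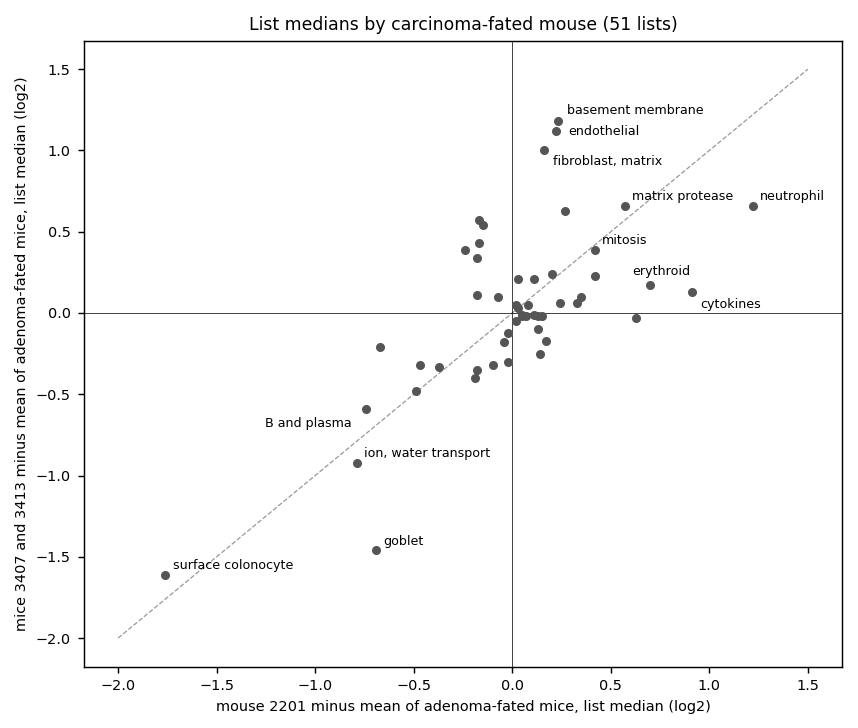
Each point is 1 of 51 lists: the x axis is the median over its genes of mouse 2201 minus the adenoma-fated mean, the y axis the same for the mean of mice 3407 and 3413, both in log2 units in early biopsies, with the line of equality dashed. Surface colonocyte (-1.76 and -1.61) and mitosis (0.42 and 0.39) lie near the line, the vascular and matrix lists above it and the neutrophil and cytokine lists below it.

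Several immune lists were led by 1 adenoma-fated mouse. B and plasma cell genes had a level of 10.12 in mouse 1805 and of 7.62 to 8.13 in the other 5; their median difference was -0.63, and 0.16 without mouse 1805. Cd79a, a subunit of the B cell receptor, was at 10.76 in mouse 1805 and at 5.48 to 6.88 elsewhere. Class II antigen presentation was likewise highest in mouse 1805 (9.53 against 7.71 to 8.43), with a median of -0.38 that was 0.10 without it, and Cd74, the class II chaperone, was at 12.70 there. Interferon response genes had a level of 10.03 in mouse 1755 and of 8.39 to 8.63 in the other 5; the median was -0.47, and 0.17 without mouse 1755. Mast cell genes were at 9.95 in mouse 1755 and 7.70 to 8.84 elsewhere, with a median of 0.04 (-0.03 with each array centred on its median) that was 0.60 without mouse 1755 and -0.50 without mouse 1803. In the B and plasma, class II and interferon lists, the remaining adenoma-fated biopsies lay among the carcinoma-fated ones.

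The remaining lists of immune and other cell types had medians near 0, apart from the red cell genes. The median was 0.05 for T cell genes (13 measured; -0.02 after quantile normalization), -0.03 for cytotoxic lymphocyte genes (13), -0.03 for eosinophil and basophil genes (7), 0.11 for fat cell genes (7) and 0.01 for enteric nerve and glia genes (10; -0.06 after quantile normalization). Only 2 of 10 red cell genes were measured, with a median of 0.35. Of the metabolic lists, oxidative phosphorylation genes had a median of -0.25, 22 of 22 lower, with 11 of them without overlap (7.31% of all genes); Ndufa1 and Ndufb8, subunits of complex I, were both at -0.53. That list was nearer 0 in mouse 2201 (-0.10) than in mice 3407 and 3413 (-0.32). Glycolysis and hypoxia genes had a median of -0.11 over 18, with Pdk1, which keeps pyruvate from mitochondria, at -0.43, and sterol and fatty acid synthesis genes one of -0.06 over 19, with Insig1 at -0.51. Heat shock and unfolded protein genes were at 0.00 over 15, immediate early genes at -0.05 over 21, of which Klf4 and Klf6 (-0.57) had the smallest p, and reference genes at 0.03 over 10 (-0.04 with each array centred on its median).

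The genes ranked by p outside the lists were mostly small, tight differences. Anxa8, an annexin that binds membrane lipids, had the smallest p of all: 11.77, 11.85 and 11.76 in the adenoma-fated and 10.91, 10.95 and 10.87 in the carcinoma-fated mice, a difference of -0.88 (SE 0.0787; adjusted p 0.178, limma). Pcdhb4, a protocadherin, was the first of the higher genes at 7.23, 7.17 and 7.21 against 8.17, 7.99 and 7.97 (difference 0.84). In both genes the SD within a group was at most 0.11. Casp1, the protease of the inflammasome, which cleaves the precursor of Il18, averaged 9.87 ± 0.13 against 8.95 ± 0.09 (SD, n = 3 each; difference -0.92). Cideb, a lipid droplet protein, was at -1.69, Prss30, a channel-activating serine protease, at -2.83, Clec2h, a lectin of gut epithelium, at -2.41, Cyp2d34, a cytochrome, at -1.80 and the zinc finger gene Zfp758 at -0.77. Higher genes were Gcnt4, a glycosyltransferase, at 0.78, the cytoskeletal Septin11 at 0.57, Spred3, an inhibitor of Ras signalling, at 0.57, Tmem252 at 0.60, Gas2l3, a cytoskeletal linker in dividing cells, at 0.66 and Chsy1, which builds chondroitin chains, at 0.49. None of these had overlapping groups, as the ranking favors. Ly6g, best known as a surface antigen of neutrophils, was at 12.28, 12.32 and 13.02 against 10.67, 10.97 and 10.66, a difference of -1.77 that runs against the neutrophil list, and Ly6g2 was at -1.07. Ly6 genes are near-identical neighbors, so signal may be shared between them, and these 2 values are uncertain.

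The late biopsies of the same 6 tumors are set beside the early ones. They came at 332.7 ± 86.4 days in the adenoma and 227.3 ± 35.2 days in the carcinoma mice (SD, n = 3 each), and no gene passed the late comparison either (0 of 19938, smallest adjusted p 0.305, limma). Side by side, the list medians early and late were -1.67 and -1.19 for surface colonocyte genes, -1.25 and -0.93 for goblet genes, and 0.39 and 0.42 for mitosis genes. They were 0.97 and -0.48 for neutrophil genes, 0.84 and -0.08 for endothelial genes, 0.65 and -0.10 for fibroblast genes, and 0.53 and 0.14 for matrix proteases. The neutrophil list was at 8.78 to 10.19 in the late adenoma and 8.75 to 9.24 in the late carcinoma biopsies, all above the early adenoma-fated range of 7.73 to 8.31. The endothelial list was likewise at 9.67 to 9.96 in all 6 late biopsies, against 8.54 to 8.89 in the early adenoma-fated ones. All 6 late arrays had sample numbers of 319 to 379. Their lowest-numbered probe sets averaged 6.80 to 6.94, on the side of the early arrays of mice 3407 and 3413. For the adenoma mice and mouse 2201, a change from early to late thus cannot be told apart from that split. For Hp the late values were 9.63, 9.90 and 10.11 in the adenoma mice and 9.88, 10.45 and 10.69 in mice 2201, 3407 and 3413, a difference of 0.46. Whether a gene's early difference departed from its late one was tested with mouse as a block: 0 of 19938 passed (smallest adjusted p 0.456, limma) and 1404 (7.04%) had an unadjusted p under 0.05. No early difference is thus shown to depart from the late one.

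**Figure D5:**
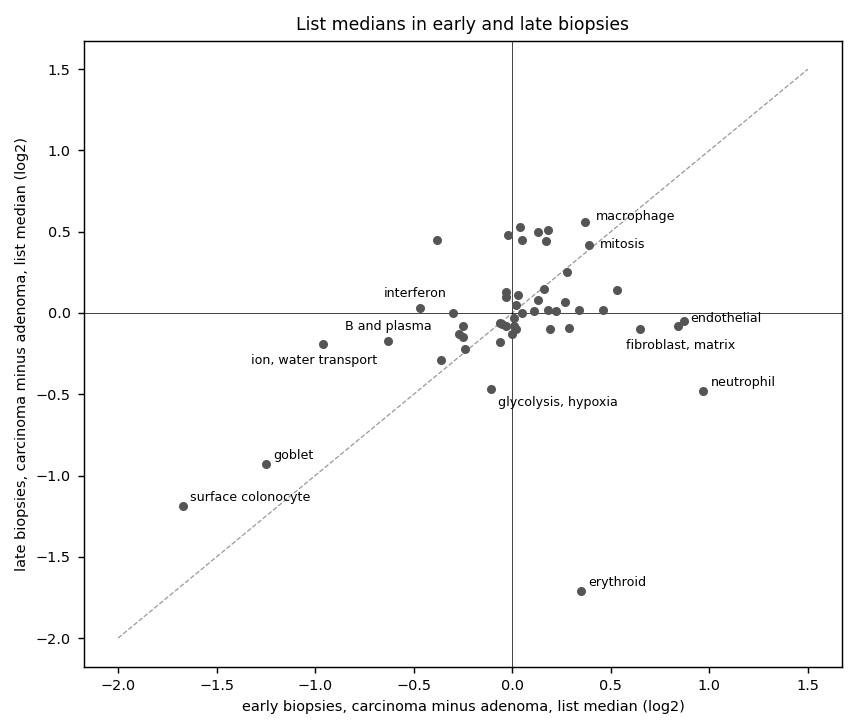
Each point is 1 of 51 lists: the x axis is the median difference (carcinoma minus adenoma, log2 units) in the early biopsies and the y axis that in the late biopsies of the same 6 mice, with the line of equality dashed. Surface colonocyte and goblet lists are below 0 and the mitosis list above 0 on both axes; neutrophil (0.97 and -0.48), endothelial (0.84 and -0.08) and fibroblast (0.65 and -0.10) lists are above 0 early only.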

How the data were processed

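Biopsies of colon tumors were profiled on Affymetrix mouse gene arrays from 300 ng of RNA, per the labels. The deposited values were read as log2 intensities from their range; the authors' summary and normalization steps were not given in the sources used here, nor was which stabilising buffer each biopsy had. Values were used as deposited. Of 35557 probe sets, 21789 carry 1 symbol, 1621 several and 12147 none; 21698 matched a RefSeq gene identifier, and 0 symbols changed. For 999 genes with several probe sets, the one with the highest mean was used. The number of arrays limits precision, and no detection calls were used.

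The 6 early arrays were fitted alone with limma 3.58.1 (R 4.3.3; lmFit, eBayes, Benjamini-Hochberg over 19938 genes, threshold 0.05); ± is SD, SE that of the fit, and p-values measure the spread between mice. The early-minus-late test, with mouse as a fixed block, was added after the data were seen. Genes named are up to 10 per direction by smallest p, up to 4 per list, and fixed genes. From the genes ranked per direction, predicted genes, small RNAs, receptor families and genes with a mean under the 25th percentile were excluded. Genes named from the lists were not filtered in this way. The groups and the 51 lists (800 of 876 genes measured) were chosen with earlier results of these data known, so lists are described and not tested. The fit was tested on simulated data. The 16 alternatives covered normalization, filtering, probe sets, the variance prior, covariates, all 12 arrays, and each mouse left out.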

Additional observations from a re-analysis of the deposited data

How the results depend on the processing

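With 0 genes past the adjusted threshold in the reported fit, each alternative that compared 3 mice with 3 also gave 0. Leaving out a mouse gave 0 to 25 (25 without mouse 1803, 1 without mouse 2201). No paired analysis was possible because the groups compared share no mouse; the fit over 12 arrays with mouse as a random replicate block gave 0 genes, a smallest adjusted p of 0.134 and 2384 genes at an unadjusted p under 0.05. That last count, 2338 as reported, was 1491 with age as a term and 1556 with the sample number range as a term, and it ranged from 1396 (without mouse 3407) to 2744 (without mouse 1803); the cause was not tested. The higher share of the genes at an unadjusted p under 0.05 was 56.6% as reported, 46.4% after quantile normalization and 30.2% with arrays centred on their median. Many of the genes followed were named for a small p in these same data. Where groups do not overlap, leaving out a mouse cannot turn the sign, so for such genes a kept direction carries little weight. Of 140 genes followed through 16 alternatives, 134 kept their direction. Those that did not were Axin2 (-0.01 with the sample number term), Myc, Ctnnb1 and Pla2g2a (-0.01, -0.04 and -0.03 centred on the median; Pla2g2a -0.02 with age), and, with mice left out, Myc (-0.16 to 0.32), Ctnnb1 (-0.06 to 0.11), Apc (-0.11 to 0.12), Pla2g2a (-0.05 to 0.12) and Ms4a2 (-1.10 to 0.40). Of 816 list medians under the alternatives, 31 moved by more than the spread between mice, in 22 of 51 lists. With 3 mice a group, ages of 86 to 117 days and sample numbers that set mice 3407 and 3413 apart, differences by fate, age and sample number can be told apart only in part.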

Other observations

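Circadian clock genes were lower in the early carcinoma-fated biopsies as a group. Of 16 measured, 13 had a lower mean, with a median of -0.30, and 9 were lower without overlap (7.31% of all genes). Nr1d2, a repressor of the clock, read 10.43, 10.58 and 10.59 in mice 1755, 1803 and 1805 and 9.97, 9.87 and 10.07 in mice 2201, 3407 and 3413. Ciart was at -1.06, Tef at -0.61, Per2 at -0.75 and Dbp at -1.11, while Arntl, whose rhythm runs opposite to theirs in most tissues, was at 0.51. The late median of the list was 0.00. The hour at which each biopsy was taken was not given in the sources used here; its part was not tested.

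The protocadherin beta cluster, a row of near-identical neighboring genes for cell adhesion, was looked at after Pcdhb4 had ranked first among the higher genes, so its values are a description of a family chosen on these data. All 22 measured members had a higher mean in the early carcinoma-fated biopsies, with a median of 0.32 and 3 without overlap (10.7% of all genes). In the late biopsies all 22 were higher again, with a median of 0.60 and 12 without overlap (8.77% of all genes). Probe sets of the cluster may share signal. Small nucleolar RNAs, also looked at after the fact, had an early median of -0.09 over 51, 30 of them lower, 16 at an unadjusted p under 0.05 (5.09% of all genes). That count was 9 without mouse 1755, 10 without mouse 1805, 5 without mouse 3407 and 7 without mouse 3413. Late, 48 of the 51 were higher, with a median of 0.26 and 11 without overlap (8.77% of all genes).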
